A study of Mus musculus with 9 samples.

Results

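The semaphorins, plexins and neuropilins were read from the gene table of K7M2 cells, a mouse osteosarcoma line labelled WT. A gene was a member when its name matched Sema3 to Sema7, Plxna to Plxnd, or Nrp1 or Nrp2 with the usual letter or number, which gave 31 of 55401 genes: 20 semaphorins, 9 plexins and 2 neuropilins. Cells were sequenced after treatment with mouse platelets marked (A/R), after treatment with mouse platelets, and untreated, with 3 libraries in each group. The labels do not explain (A/R). The titles give 24 h throughout, whereas the treatment labels run over 27, 28 and 29 h in the (A/R) platelet libraries and 24, 25 and 26 h in the platelet libraries, a step of 1 h from library to library that the titles do not bear out. Whether these hours are real times is not known, and if they are, hours and (A/R) cannot be told apart. Nothing says that replicates came from separate cultures, so p-values cover only how much these libraries varied, possibly for technical reasons.

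Semaphorins are secreted or membrane-bound guidance ligands. They act through plexins, receptors whose inner part switches off small GTPases such as Rap, and the secreted class 3 members mostly need a neuropilin to reach a class A plexin. The family is best known from growing axons, and in mouse bone it also carries signals between osteoblasts and osteoclasts. Neuropilins double as co-receptors of VEGF.

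The libraries held 37465049 to 61366030 estimated counts. Of the 12 mesenchymal and osteoblast markers, 9 were at or above the filter used for testing, Vim and Col1a2 among them, while the osteoblast genes Sp7 and Bglap had at most 8 counts in any library and Alpl had 0. The 12 platelet and megakaryocyte markers summed to 2.49 to 3.34 CPM (counts scaled to a common library total) in (A/R) platelet, 4.10 to 5.25 CPM in platelet and 4.32 to 6.14 CPM in untreated libraries. Ppbp, the 1 of the 12 that passed the filter, had 1.45 to 4.33 CPM over the 9 libraries. None of the others exceeded 0.876 CPM in any library, and Tubb1, Gp6, Treml1 and Clec1b had 0 counts in all 9.

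Of the 31 members, 16 were expressed at a mean of at least 1 FPKM (mapped fragments scaled to transcript length and library size) in every group, and the same 16 passed the filter of at least 1 FPKM in at least 3 of the 9 libraries. They were the 4 secreted ligands Sema3a, Sema3b, Sema3c and Sema3f, the 4 membrane ligands Sema4b, Sema4c, Sema5a and Sema6b, the lipid-anchored ligand Sema7a, the 5 plexins Plxna1, Plxna2, Plxna4, Plxnb2 and Plxnd1, and both neuropilins. The other 15 stayed at or below 0.511 FPKM in every library. Nearest to the filter were Sema3c inside it, at 0.894 to 1.24 FPKM, and Plxna3 outside it, at 0.279 to 0.511 FPKM.

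**Figure D1:**
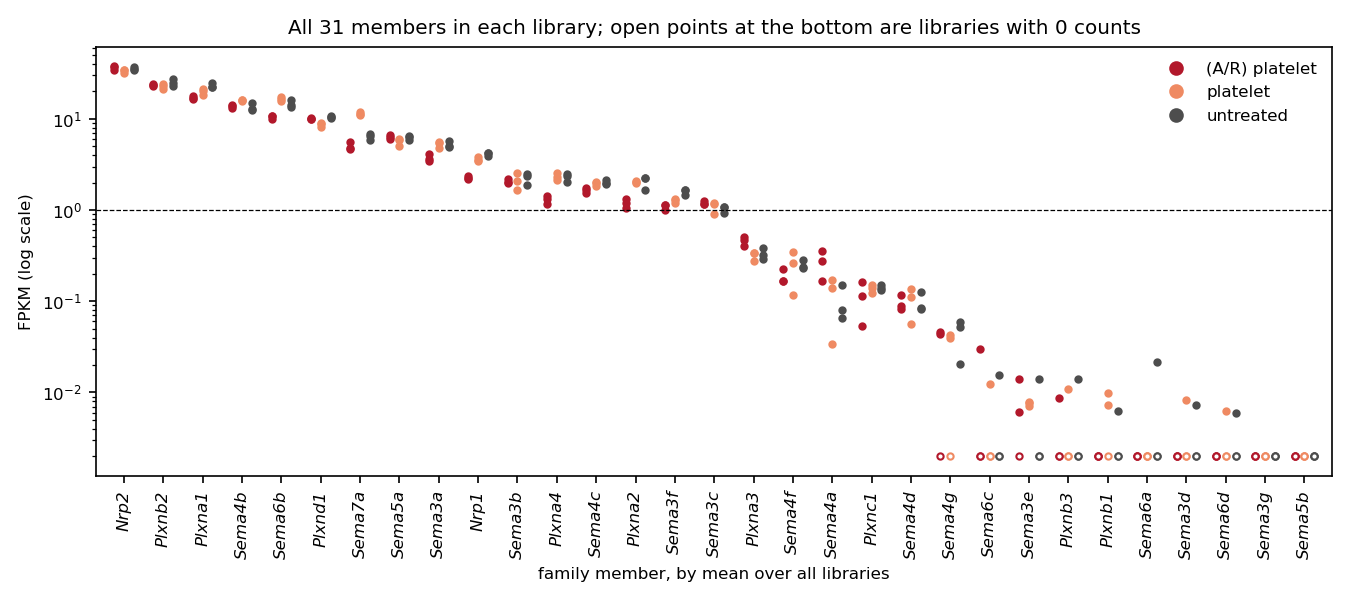
FPKM on a log scale of all 31 members in each library, ordered by the mean over all libraries, with (A/R) platelet, platelet and untreated points side by side. The dashed line marks 1 FPKM, and 16 members have their group means above it, while open points at the bottom stand for libraries with 0 counts.

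In untreated cells the order was led by the receptors. Nrp2, the neuropilin of Sema3f and VEGF-C, averaged 35.5 ± 1.23 FPKM (SD, n = 3), followed by Plxnb2, a receptor of class 4 semaphorins, at 25.0 ± 2.05 and Plxna1 at 23.1 ± 1.24. The ranges of Plxnb2 and Plxna1 overlapped. The ligands with the highest levels, Sema6b at 14.5 ± 1.38 and Sema4b at 13.5 ± 1.34 FPKM, also overlapped each other. Next came Plxnd1 at 10.4 ± 0.264, then the overlapping Sema7a at 6.36 ± 0.507 and Sema5a at 6.24 ± 0.391. Below them Sema3a averaged 5.23 ± 0.389 and Nrp1 4.13 ± 0.173. Plxna4, Sema3b, Plxna2 and Sema4c lay between 2.02 and 2.30 FPKM with each overlapping its neighbour, and Sema3f at 1.59 ± 0.121 and Sema3c at 1.03 ± 0.0787 ended the order.

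Sema7a, the single class 7 semaphorin, is held on the cell surface by a lipid anchor and binds plexin C1 and integrins that contain the beta 1 chain. Members were selected by name, but the family itself was chosen by the FPKM of Sema7a, which was higher with platelets in these libraries, so its values are a description without a test. Sema7a had 5.55, 4.78 and 4.73 FPKM in the (A/R) platelet libraries, 11.8, 11.1 and 11.3 FPKM in the platelet libraries and 5.82, 6.83 and 6.42 FPKM in the untreated libraries. All 3 platelet libraries stood above the other 6, and each (A/R) platelet library stood below each untreated one. The fitted level was 1.81-fold higher with platelets than without (log2 fold change 0.85 ± 0.089, SE). With (A/R) platelets it was 2.21-fold lower than with platelets (-1.14 ± 0.090) and 1.22-fold lower than in untreated cells (-0.29 ± 0.089). The comparisons share libraries and are given side by side. Sema7a was 8th of the 16 expressed members in (A/R) platelet libraries, 6th in platelet and 7th in untreated libraries. In bulk RNA, a change in the share of cells that make a transcript and a change in the amount per cell cannot be told apart. The summed platelet markers given above, of which Ppbp had the highest CPM, overlapped between platelet and untreated libraries. The part of platelet RNA in the Sema7a values was not tested.

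The promoter of Sema7a is shown because the family was chosen by this gene's FPKM. It is the RefSeq window of 250 bases before the start in build GRCm38.p6, chr9:57939862-57940111 on the plus strand, written 5′ to 3′ with no capitals, since none of the motifs searched occurred in it.
Sema7a: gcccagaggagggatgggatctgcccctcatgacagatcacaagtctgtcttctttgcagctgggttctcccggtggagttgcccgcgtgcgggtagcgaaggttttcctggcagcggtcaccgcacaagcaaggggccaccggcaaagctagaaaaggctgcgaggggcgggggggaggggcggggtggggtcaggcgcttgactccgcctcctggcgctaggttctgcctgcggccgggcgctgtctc

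The receptors of Sema7a were unevenly expressed. Plxnc1, plexin C1, had 23, 92 and 64 counts in (A/R) platelet, 69, 67 and 54 counts in platelet and 64, 72 and 53 counts in untreated libraries, at most 0.161 FPKM, and did not pass the filter. Itgb1, the integrin beta 1 chain and no member of the family, averaged 239 ± 6.80, 220 ± 9.44 and 204 ± 6.09 FPKM in (A/R) platelet, platelet and untreated libraries (SD, n = 3 each). Itgb1 was higher with (A/R) platelets than in untreated cells (0.28 ± 0.045, adjusted p 0.00127) and than with platelets (0.16 ± 0.045, adjusted p 0.0259), and was not called between platelet and untreated libraries (0.12 ± 0.045, adjusted p 0.320). Itgb1 and its partner chain Itga1 are named here as receptors, outside the choice by p used for the other pathway genes. Itga1 stayed at or below 0.193 FPKM.

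**Figure D2:**
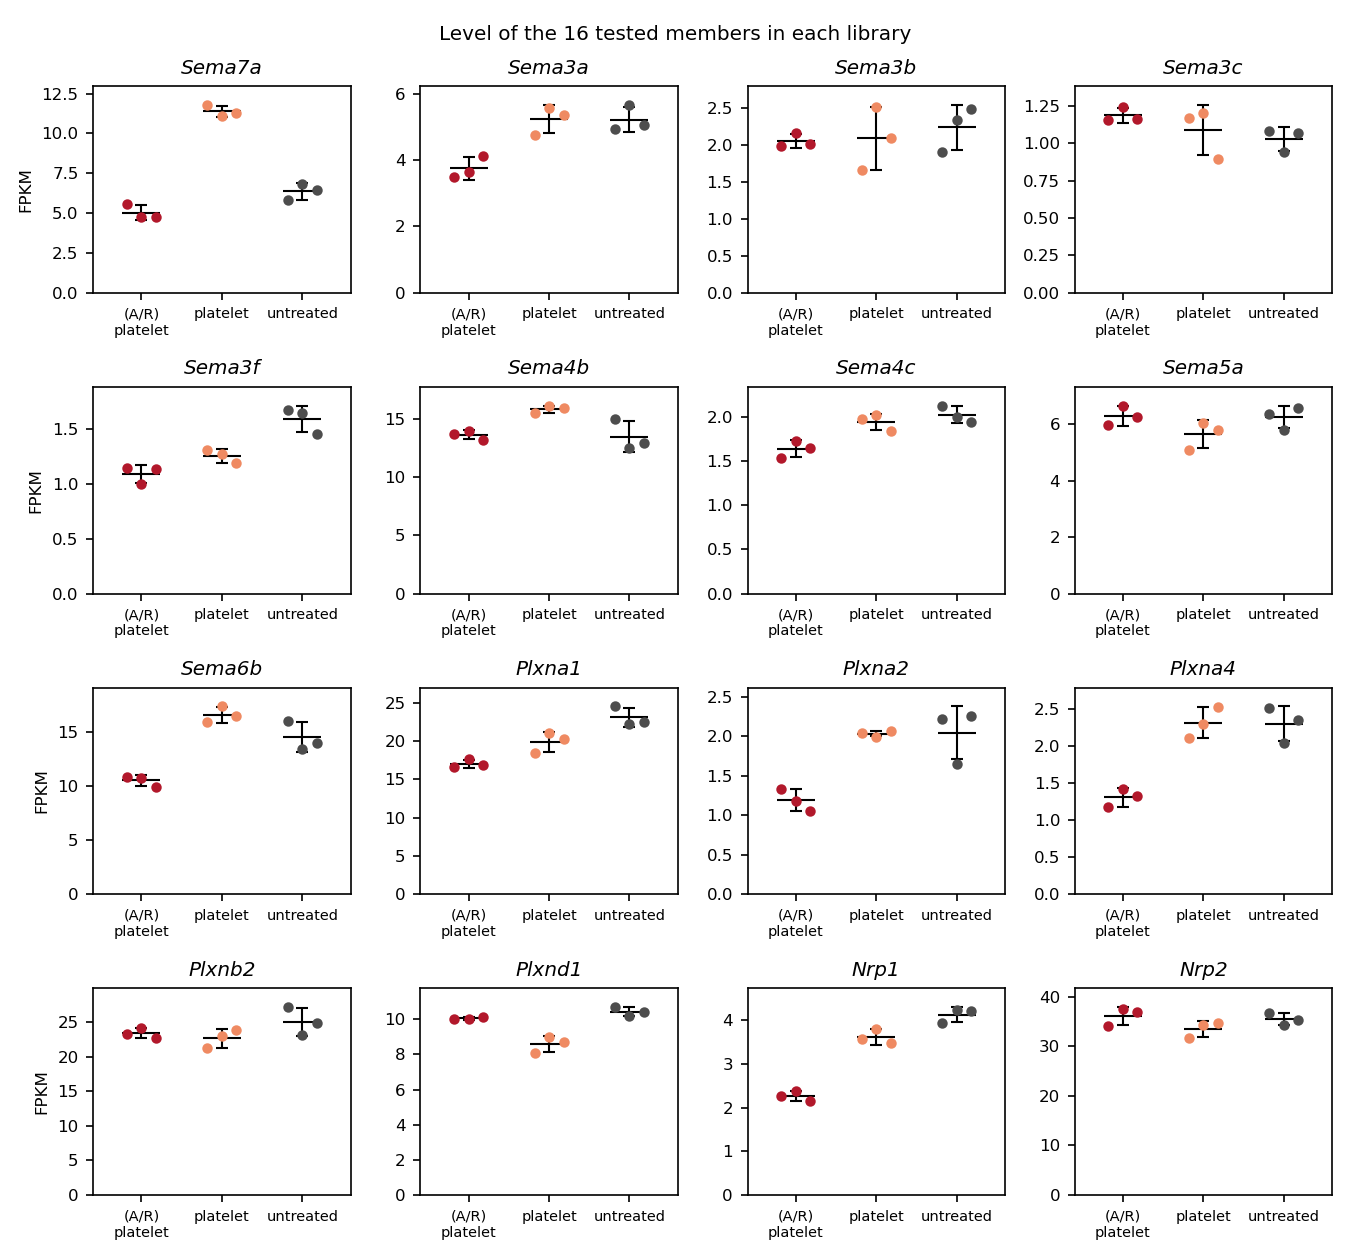
FPKM of the 16 members that passed the filter in each library (points, replicates 1 to 3 from left to right), with the group mean and SD (n = 3), for (A/R) platelet, platelet and untreated cells, each panel with its own axis from 0. Sema7a is high in the 3 platelet libraries, at 11.1 to 11.8 FPKM, whereas Nrp1, Plxna2, Plxna4 and Sema6b are low in the 3 (A/R) platelet libraries.

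The question of what platelets and (A/R) platelets do to the rest of the family was addressed over the 15 other tested members, with p-values adjusted over all 11826 tested genes. With (A/R) platelets, 7 of the 15 fell against untreated cells and 0 rose: Nrp1, Plxna1, Plxna2, Plxna4, Sema3a, Sema3f and Sema6b. That is 46.7% of them, where 38.8% of all tested genes were called, 19.5% lower and 19.3% higher. Against platelet-treated cells, 6 of the 15 fell with (A/R) platelets (the same genes without Sema3f) and Plxnd1 rose, where 34.3% of all tested genes were called, 17.1% in each direction. With platelets, 0 of the 15 passed edgeR's test against untreated cells, where 0.262% of all tested genes were called, 0.211% higher and 0.0507% lower. In that comparison 6 of the 15 had an unadjusted p under 0.05, against 12.9% of all tested genes. DESeq2 called Plxnd1 alone of the 15, where it called 1.88% of all tested genes. On log2(FPKM + 1), limma called 0 of the 15 and 31 of the 11826 tested genes. Counted by FPKM alone, the groups did not overlap for 10 of the 15 in (A/R) platelet against untreated, 9 lower and 1 higher, where this held for 51.1% of all tested genes, 29.8% lower and 21.4% higher. It held with platelets against untreated cells for 5 of the 15, 4 lower and 1 higher, against 19.3% of all tested genes, 11.2% lower and 8.16% higher. For (A/R) platelet against platelet it held for 10 of the 15, 9 lower and 1 higher, against 48.9%, 27.6% lower and 21.3% higher. The median log2 fold change of the 15 was -0.26 for (A/R) platelet against untreated, -0.067 for platelet against untreated and -0.18 for (A/R) platelet against platelet, while over all tested genes it was 0.0013, -0.0011 and 0.0019.

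Beside these falls, the summed mesenchymal, endothelial, leukocyte and platelet markers were also lowest in the (A/R) platelet libraries, and the sums were not tested. The 12 mesenchymal and osteoblast markers summed to 5999 to 6175 CPM with (A/R) platelets, 7586 to 7778 CPM with platelets and 7842 to 7980 CPM in untreated libraries. Of these 12, Vim alone had 2860 to 3550 CPM over the 9 libraries, Col1a2 1160 to 1550 CPM and Col3a1 704 to 1460 CPM. The 4 endothelial markers summed to 2.87 to 3.48 CPM with (A/R) platelets, 5.64 to 6.02 CPM with platelets and 4.90 to 7.17 CPM in untreated libraries, and 1 of the 4, Cdh5, passed the filter. The 8 leukocyte markers summed to 1995 to 2131 CPM with (A/R) platelets, 2588 to 2774 CPM with platelets and 2727 to 2878 CPM in untreated libraries. Csf1r, a receptor of macrophages, made up nearly all of that sum, at 309 to 447 FPKM. Lyz2, the other of the 8 that passed the filter, varied from 9 to 347 counts and reached 4.96 FPKM. The pan-leukocyte gene Ptprc had at most 12 counts in any library and Cd3e had 0. The 4 red cell markers summed to 0.975 to 1.60 CPM with (A/R) platelets, 1.18 to 1.63 CPM with platelets and 0.836 to 1.73 CPM in untreated libraries. The part of any of these cell types in the members' values was not tested.

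**Figure D3:**
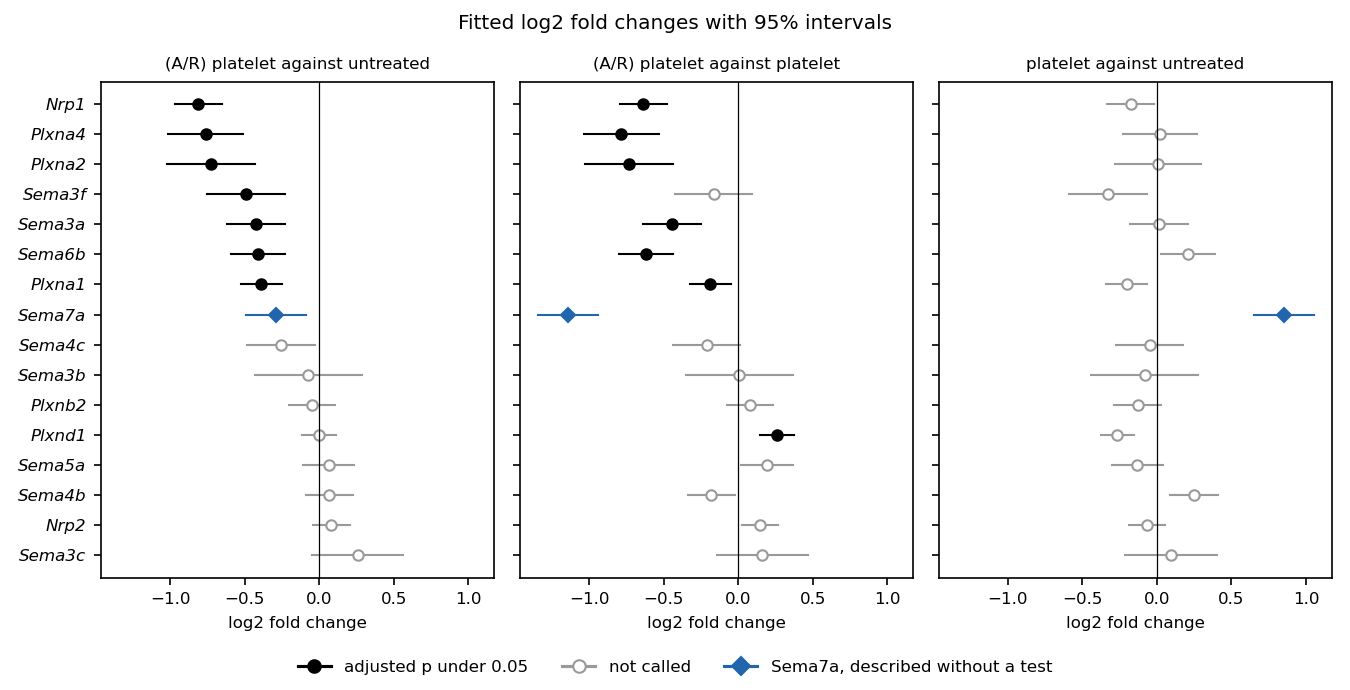
Fitted log2 fold change with its 95% interval in the 3 comparisons, for the 16 members that passed the filter. Members past the threshold are filled black points, members not called are open points and Sema7a is a blue diamond. Sema7a is described without a test, and its interval is not to be read as one, since the family was chosen by its FPKM. Nrp1, Plxna4 and Plxna2 lie furthest left for (A/R) platelet against untreated, at -0.81, -0.76 and -0.73, and lie near 0 or slightly below it for platelet against untreated.

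Among the secreted ligands, Sema3a and Sema3f were lower with (A/R) platelets, and no change was called for Sema3b and Sema3c. Sema3a, which repels axons through Nrp1 and class A plexins and in mouse bone restrains osteoclasts, had 3.49, 3.63 and 4.14 FPKM in (A/R) platelet, 4.76, 5.57 and 5.37 in platelet and 4.95, 5.67 and 5.07 in untreated libraries. The (A/R) platelet libraries lay below all others, and the platelet and untreated libraries overlapped. Sema3a fell by 0.43 on the log2 scale against untreated cells (SE 0.086, adjusted p 0.00412) and by 0.44 against platelet-treated cells (SE 0.086, adjusted p 0.00385). Between platelet and untreated libraries the difference was 0.015, with a 95% interval of -0.18 to 0.21.

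Sema3f, which prefers Nrp2 as its neuropilin, had 1.15, 0.996 and 1.14 FPKM with (A/R) platelets, 1.31, 1.28 and 1.19 with platelets and 1.68, 1.65 and 1.45 in untreated libraries. The 3 groups did not overlap. The fall with (A/R) platelets against untreated cells passed (-0.49 ± 0.12, SE, adjusted p 0.00847), and its call was lost with quantile-normalized FPKM (adjusted p 0.0619). The lower values with platelets did not pass (-0.33, 95% interval -0.59 to -0.069, adjusted p 0.307), and neither did the difference between both treatments (-0.17, adjusted p 0.307). Sema3b lies 72.3 kb from Sema3f on chromosome 9 and ranged from 1.67 to 2.52 FPKM over the 9 libraries, with all groups overlapping. Its change was -0.075 for (A/R) platelet against untreated, with an interval of -0.44 to 0.29. Sema3c, a ligand of neuropilins and plexin D1, had 1.15 to 1.24 FPKM in (A/R) platelet, 0.894 to 1.20 in platelet and 0.939 to 1.08 in untreated libraries. It was 0.26 higher with (A/R) platelets than in untreated cells, with an interval of -0.050 to 0.56 (adjusted p 0.170).

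Of the membrane ligands, Sema6b differed most. Sema6b, whose class signals to class A plexins, had 10.9, 10.8 and 9.90 FPKM with (A/R) platelets, 15.9, 17.3 and 16.4 with platelets and 16.0, 13.4 and 14.0 in untreated libraries. The (A/R) platelet libraries were below all others, and untreated replicate 1 reached into the platelet range. The fall with (A/R) platelets was 0.41 on the log2 scale against untreated cells (SE 0.080, adjusted p 0.00328) and 0.62 against platelet-treated cells (SE 0.080, adjusted p 0.000411). For platelet against untreated the difference of 0.21 did not pass (interval 0.026 to 0.39, adjusted p 0.337).

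Sema4b, a membrane ligand of class 4, had 13.7, 14.0 and 13.2 FPKM with (A/R) platelets, 15.5, 16.1 and 16.0 with platelets and 15.0, 12.5 and 13.0 in untreated libraries. The platelet libraries were above all others in FPKM, yet the difference passed neither against untreated cells (0.25, interval 0.088 to 0.41, adjusted p 0.237) nor for (A/R) platelet against platelet (-0.18, adjusted p 0.0787). That second difference was called in 5 of 20 alternatives, in 1 of them with an adjusted p of 0.0173 when untreated replicate 1 was left out. Sema4c, a ligand of plexin B2, had 1.54, 1.72 and 1.65 FPKM with (A/R) platelets, 1.98, 2.02 and 1.84 with platelets and 2.13, 2.00 and 1.94 in untreated libraries. Its lower values with (A/R) platelets did not pass against untreated cells (-0.26, interval -0.48 to -0.033, adjusted p 0.0688), and did in 3 of 20 alternatives. Sema5a, which carries thrombospondin repeats, ranged from 5.09 to 6.66 FPKM. Its differences were 0.062 for (A/R) platelet against untreated (interval -0.11 to 0.23), -0.13 for platelet against untreated (interval -0.30 to 0.041) and 0.19 for (A/R) platelet against platelet (interval 0.021 to 0.37, adjusted p 0.0813).

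All 3 class A plexins that passed the filter fell with (A/R) platelets against untreated cells, where 19.5% of all tested genes were called lower. They also fell against platelet-treated cells, where 17.1% were called lower, although the Plxna1 call there depended on the processing. Class A plexins are those that class 3 semaphorins reach through neuropilins and class 6 semaphorins bind directly. Plxna4 had 1.17, 1.42 and 1.33 FPKM with (A/R) platelets, 2.11, 2.29 and 2.53 with platelets and 2.50, 2.04 and 2.34 in untreated libraries. Plxna2 had 1.33, 1.18 and 1.06 FPKM with (A/R) platelets, 2.04, 2.00 and 2.07 with platelets and 2.22, 1.65 and 2.25 in untreated libraries. For both genes the (A/R) platelet libraries lay below all others and the other groups overlapped. Plxna4 fell 1.70-fold against untreated cells (-0.76 ± 0.11, SE, adjusted p 0.000672) and 1.72-fold against platelet-treated cells (-0.78 ± 0.11, adjusted p 0.000685). Plxna2 fell 1.65-fold against untreated cells (-0.73 ± 0.13, adjusted p 0.00211) and 1.66-fold against platelet-treated cells (-0.73 ± 0.13, adjusted p 0.00230). With platelets against untreated cells, their intervals were -0.23 to 0.27 for Plxna4 and -0.28 to 0.30 for Plxna2.

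Plxna1, the class A plexin with the highest level, had 16.7, 17.6 and 16.8 FPKM with (A/R) platelets, 18.4, 21.1 and 20.2 with platelets and 24.5, 22.3 and 22.6 in untreated libraries. The 3 groups did not overlap. Plxna1 fell with (A/R) platelets against untreated cells (-0.39 ± 0.060, SE, adjusted p 0.000951). Its fall against platelet-treated cells was just past the threshold (-0.19 ± 0.060, adjusted p 0.0399). That call was lost in 10 of 20 alternatives, among them without any 1 of the (A/R) platelet libraries, without platelet replicate 2 or 3 and without untreated replicate 3 (adjusted p up to 0.152). For platelet against untreated the difference was -0.20, with an interval of -0.34 to -0.067 (adjusted p 0.248). The fourth class A plexin, Plxna3, was below the filter, with 163, 278 and 251 counts with (A/R) platelets, 128, 144 and 139 with platelets and 176, 141 and 107 in untreated libraries. In FPKM the (A/R) platelet libraries, at 0.406 to 0.511, lay above all others, at 0.279 to 0.384. In an edgeR fit of 16315 genes with the looser filter filterByExpr, Plxna3 was higher for (A/R) platelet against platelet (0.58 ± 0.18, SE, adjusted p 0.0412) and just missed the threshold against untreated cells (0.54 ± 0.18, adjusted p 0.0502).

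Plxnd1, the receptor of Sema3e and known from blood vessels, was the only one of the 15 whose rise passed. It had 10.0, 10.0 and 10.1 FPKM with (A/R) platelets, 8.10, 8.97 and 8.72 with platelets and 10.7, 10.2 and 10.4 in untreated libraries. The platelet libraries were below all others. Plxnd1 was higher with (A/R) platelets than with platelets (0.26 ± 0.050, SE, adjusted p 0.00341), and its difference from untreated cells was -0.0026, with an interval of -0.12 to 0.11. In FPKM, the (A/R) platelet libraries nevertheless lay just below the untreated ones. The fit rescales libraries by TMM factors, at 0.977 to 0.986 in (A/R) platelet and 1.009 to 1.021 in untreated libraries. The deposited FPKM is used without them. For platelet against untreated its change of -0.27 had the smallest adjusted p of the 15 members, 0.0885, and was called by DESeq2 (adjusted p 0.00587). Plxnb2, the class B plexin, ranged from 21.2 to 27.2 FPKM with all groups overlapping. The difference of Plxnb2 was -0.049 for (A/R) platelet against untreated (interval -0.20 to 0.11).

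Of the neuropilins, Nrp1 fell with (A/R) platelets and no change was called for Nrp2. Nrp1, the neuropilin of Sema3a and of VEGF-A, had 2.26, 2.38 and 2.17 FPKM with (A/R) platelets, 3.58, 3.82 and 3.47 with platelets and 3.93, 4.25 and 4.22 in untreated libraries. The 3 groups did not overlap. Nrp1 fell 1.76-fold with (A/R) platelets against untreated cells (-0.81 ± 0.069, SE, adjusted p 3.11e-05), the smallest adjusted p of the 15 members, and 1.56-fold against platelet-treated cells (-0.64 ± 0.069, adjusted p 0.000162). With platelets it was 0.18 lower than in untreated cells, with an interval of -0.33 to -0.020, which did not pass (adjusted p 0.340).

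Nrp2 had 34.2, 37.5 and 36.9 FPKM with (A/R) platelets, 31.7, 34.3 and 34.6 with platelets and 36.7, 34.3 and 35.4 in untreated libraries. All groups overlapped. Its difference was 0.079 for (A/R) platelet against untreated (interval -0.044 to 0.20) and 0.15 for (A/R) platelet against platelet (interval 0.023 to 0.27, adjusted p 0.0681). The second was called when (A/R) platelet replicate 1 was left out (adjusted p 0.0329). The ratio of Nrp2 to Nrp1 in FPKM was accordingly 15.1 to 17.0 in (A/R) platelet libraries, 8.84 to 9.97 in platelet libraries and 8.08 to 9.34 in untreated libraries.

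Summed by role, semaphorin FPKM was lowest in the (A/R) platelet libraries, with and without Sema7a. All members together held 138 ± 3.22 FPKM in (A/R) platelet, 155 ± 6.52 in platelet and 156 ± 6.99 in untreated libraries (SD, n = 3 each). Semaphorins held 45.8 ± 0.774, 61.5 ± 1.99 and 53.2 ± 1.96 FPKM in that order of groups, a sum that includes Sema7a, by which the family was chosen. Without Sema7a they held 40.2 to 41.7 FPKM with (A/R) platelets, 48.0 to 52.6 with platelets and 44.9 to 49.6 in untreated libraries, so that platelet and untreated libraries overlapped and the (A/R) platelet libraries lay below both. Of the tested semaphorins in this sum, Sema6b differed most in mean FPKM between (A/R) platelet and untreated libraries, at 10.5 and 14.5. Means of Sema3a, Sema3b, Sema3f and Sema4c were also lower with (A/R) platelets, and those of Sema4b, Sema5a and Sema3c were slightly higher. Plexins held 53.5 ± 1.34 FPKM with (A/R) platelets, 56.0 ± 3.19 with platelets and 63.4 ± 4.02 in untreated libraries. Sema7a alone was 10.3% to 12.1% of the summed semaphorin FPKM with (A/R) platelets, 17.4% to 19.7% with platelets and 10.5% to 13.2% in untreated libraries. Class A plexins were 37.0% to 37.7% of the summed plexin FPKM with (A/R) platelets, 43.5% to 44.5% with platelets and 43.6% to 44.0% in untreated libraries. With 3 libraries a group, an exact permutation test of such a share cannot give a two-sided p below 0.1, and these sums were not tested.

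**Figure D4:**
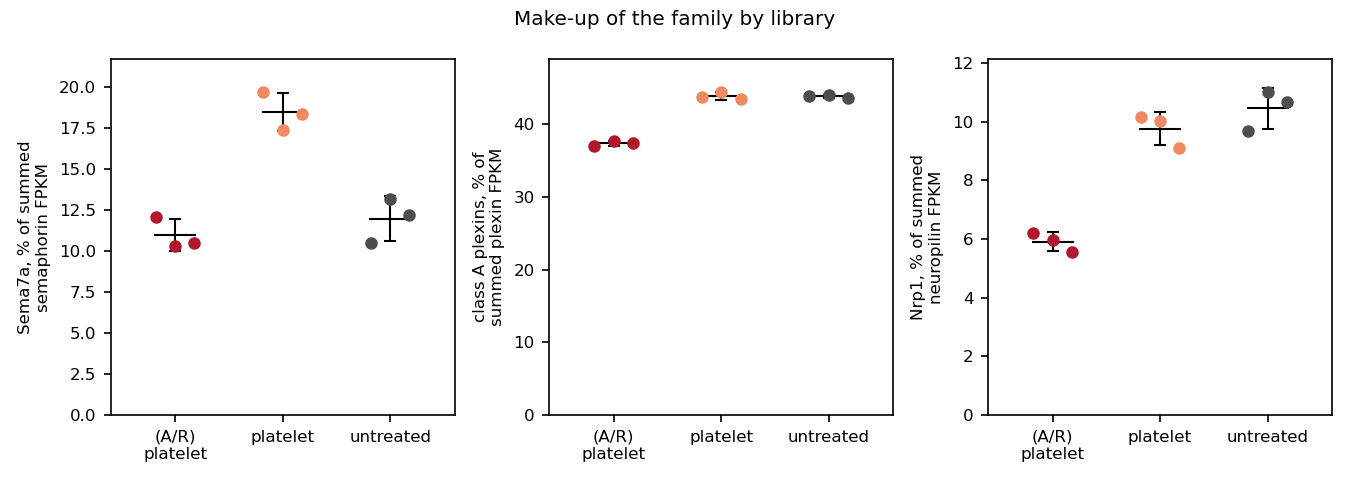
Share of Sema7a in the summed semaphorin FPKM, of class A plexins in the summed plexin FPKM and of Nrp1 in the summed neuropilin FPKM, in percent, for each library (points) with mean and SD (n = 3), in (A/R) platelet, platelet and untreated cells. The Sema7a share is high with platelets, and the class A plexin and Nrp1 shares are low with (A/R) platelets, where Nrp1 makes up 5.55% to 6.21% of neuropilin FPKM.

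The members below the filter fell into a group with few fragments and a group at the limit of detection. Plxna3, Plxnc1, Sema4a, Sema4d and Sema4f had counts in all 9 libraries. Sema4a, a class 4 ligand known from immune cells, had 76, 63 and 130 counts with (A/R) platelets, 54, 41 and 11 with platelets and 21, 27 and 35 in untreated libraries. In FPKM the (A/R) platelet libraries, at 0.167 to 0.356, overlapped the platelet libraries, at 0.0343 to 0.171, and lay above the untreated ones, at 0.0663 to 0.149. In the fit with the looser filter its difference from untreated cells was 1.48 ± 0.56 (SE, adjusted p 0.0805). Sema4d, a ligand of plexin B1 that mouse osteoclasts make, had 35, 44 and 61 counts with (A/R) platelets, 25, 46 and 55 with platelets and 38, 60 and 27 in untreated libraries, and the groups overlapped. Sema4f had 33 to 106 counts, and Sema4g 0 to 32 counts with 0 in 2 libraries.

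Another 9 members had at most 14 counts in any library: Plxnb1, Plxnb3, Sema3d, Sema3e, Sema3g, Sema5b, Sema6a, Sema6c and Sema6d. Since 1 fragment appears to add about 4 counts, this is a handful of fragments at most. Sema3g and Sema5b had 0 counts in all 9 libraries, so that a level of up to 0.320 CPM could have been missed in the shallowest library, a limit for counting error only. Plxnb1, the receptor of Sema4d, had at most 6 counts, and Sema3e, the ligand of plexin D1, at most 10.

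Other genes of the pathway, from a list of 42 non-members, gave calls in both directions. Of 30 tested, 7 were higher and 6 lower with (A/R) platelets than in untreated cells, 43.3% against 38.8% of all tested genes. Rnd1, a GTPase that binds the inner part of plexins, averaged 25.1 ± 1.67, 17.1 ± 1.10 and 13.3 ± 0.938 FPKM in (A/R) platelet, platelet and untreated libraries (SD, n = 3 each), and rose with (A/R) platelets against untreated cells (0.97 ± 0.079, SE, adjusted p 2.28e-05). Fyn, a kinase that acts downstream of Sema3a, averaged 8.12 ± 0.0736, 3.97 ± 0.312 and 3.93 ± 0.425 FPKM in the same order of groups and rose 2.14-fold against untreated cells (adjusted p 3.29e-05). Vegfa, the VEGF ligand of Nrp1, averaged 13.2 ± 0.743, 5.84 ± 0.765 and 5.92 ± 0.289 FPKM and rose 2.31-fold against untreated cells (adjusted p 2.69e-05).

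The falls against untreated cells with the smallest p were those of Dpysl2, the collapsin response mediator that Sema3a signalling phosphorylates (-0.68 ± 0.066, SE, adjusted p 6.04e-05), and Furin, the protease that cleaves class 3 semaphorins (-0.27 ± 0.057, adjusted p 0.00503). Against platelet-treated cells 9 of the 30 rose with (A/R) platelets and 3 fell, Dpysl2 (-0.46), Furin (-0.31) and Mical2 (-0.28), an oxidoreductase that acts on actin. These calls are 40.0% of the 30, where 34.3% of all tested genes were called, 17.1% in each direction. Vegfa (1.22), Fyn (1.07) and Vegfc, a VEGF ligand of Nrp2 (0.56), had the smallest p of the 9 rises. With platelets against untreated cells, 0 of the 30 passed edgeR's test, where 0.262% of all tested genes did, and 9 had an unadjusted p under 0.05, where 12.9% of all tested genes had one. DESeq2 called 3 of the 30 (Mical2, Mical3 and Rnd1) and 1.88% of all tested genes, and limma called 0 of the 30.

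In GRCm38 coordinates, the members lie on 17 chromosomes. Sema3d, Sema3a, Sema3e and Sema3c follow each other on the plus strand of chromosome 5, with 537, 424 and 3318 kb between them, and only Sema3a and Sema3c of these 4 passed the filter. Sema3b and Sema3f are neighbours on the minus strand of chromosome 9, where Sema7a spans 57940112 to 57962865 (plus strand). Nrp1 spans 128358604 to 128462081 of chromosome 8 and Nrp2 spans 62703285 to 62818695 of chromosome 1, both on the plus strand. Plxna1, at 89316314 to 89362620, and Plxna4, at 32144268 to 32588192, are both on the minus strand of chromosome 6, and Plxna2 spans 194618218 to 194816869 of chromosome 1, on the plus strand. Sema6b lies on the minus strand of chromosome 17 at 56123085 to 56140343. Genes annotated within the span of a tested member held few counts, at most 176 for Gm26811, opposite to Plxna1, and 109 for Gm37121, within Nrp2, beside at least 7607 counts of Plxna1 and 17408 of Nrp2 in any library. Sema4c, with 357 to 563 counts, is overlapped on the opposite strand by D430040D24Rik with 13 to 47 counts. No source read for this work says whether counting used strand, so reads of such partners cannot be told apart.

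Promoters were read from RefSeq windows of build GRCm38.p6, 250 bases before each start, for 26 of the 31 members and 12 of the 16 tested ones. Some of these starts lie inside the annotated span of the counted gene. This held, among others, by 469 bases for Nrp1, 6491 for the second start of Sema6b, 11747 for the second start of Sema4b, 1611 for Plxna2 and 271370 for Sema3a. Those of Nrp1, the called member with the smallest p, and Sema6b, the ligand with the smallest p, both lower with (A/R) platelets, are shown 5′ to 3′ on the strand of the gene, with capitals marking an AP-1 site. They are chr8:128358823-128359072 (plus strand) for Nrp1, and chr17:56140344-56140593 and chr17:56133853-56134102 (minus strand) for the first and the second start of Sema6b.
Nrp1: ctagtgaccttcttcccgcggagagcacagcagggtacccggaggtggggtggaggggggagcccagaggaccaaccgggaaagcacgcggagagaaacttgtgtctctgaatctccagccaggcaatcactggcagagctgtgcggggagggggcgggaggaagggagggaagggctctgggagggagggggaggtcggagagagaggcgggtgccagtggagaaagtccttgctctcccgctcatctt
Sema6b, first start: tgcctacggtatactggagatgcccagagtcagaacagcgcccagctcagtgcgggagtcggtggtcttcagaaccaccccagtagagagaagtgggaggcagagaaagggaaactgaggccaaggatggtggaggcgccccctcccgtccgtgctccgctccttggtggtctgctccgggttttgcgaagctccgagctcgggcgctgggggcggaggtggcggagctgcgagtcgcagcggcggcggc
Sema6b, second start: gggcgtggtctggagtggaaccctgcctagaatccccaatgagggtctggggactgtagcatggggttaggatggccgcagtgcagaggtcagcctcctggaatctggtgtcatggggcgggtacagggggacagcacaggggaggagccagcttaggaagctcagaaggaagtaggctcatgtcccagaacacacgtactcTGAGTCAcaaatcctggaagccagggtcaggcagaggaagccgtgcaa
The motifs searched on both strands were the AP-1 site TGANTCA, the core TGACG of cyclic AMP response elements, TGATGNA from amino acid response elements, the E-box CACGTG, the TEAD site GGAATG and the CArG box. None of these letters occurred in the Sema7a window or in the Nrp1 window. Sema6b held TGAGTCA 48 to 42 bases before its second start, and of the 12 tested members only Sema4c held another AP-1 site, where 6.75% of 32851 windows of the same length hold one. Sema4b held an E-box (6.02% of windows) before its second start, and none of the motifs before its first. Plxnd1 held a TEAD site (12.6% of windows), while none of the 12 held the TGACG core (17.8%), TGATGNA (10.4%) or a CArG box (1.47%). Genes with several starts have several windows, so a share of genes and a share of windows are not the same measure. The median GC content was 65.4% in the windows of tested members and 52.4% over all windows. The second median includes windows of genes below the filter, and none was taken over all tested genes.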

How the data were processed

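Bulk RNA-seq of 9 libraries, 3 in each of 3 groups, was analysed from 1 gene table. Per the file headers the table holds FPKM and counts per gene, and per the submitters' processing notes the build is GRCm38 (mm10). The labels' protocols name total RNA and a SMARTER mRNA-Seq kit, while the sources used here do not give aligner, counter or strand use. The deposited values are estimated counts: they are whole, but genes pile up at 4 counts (898 to 1116 genes a library, against 173 to 213 at 5), so 1 fragment is taken as 4 counts, and 3 fragments (12 counts, 0.196 to 0.320 CPM) as the limit that a count of 0 allows. The authors' FPKM is 0.0001 wherever the count is 0.

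Genes with at least 1 FPKM in at least 3 of the 9 libraries (11826 of 55401) were tested on the counts as deposited with edgeR 4.0.16 (R 4.3.3; TMM, quasi-likelihood, all 9 libraries in 1 fit), with a threshold of 0.05 on p after Benjamini-Hochberg adjustment. SEs are the log2 fold change over the square root of F, and intervals are 95%. Levels are FPKM. Every gene matching the name pattern is accounted for, with per-library values for those with a mean of at least 1 FPKM in any group. Other pathway genes are named for at most the 3 smallest p in each direction of a comparison, and 1 such gene is not reported here. Members and lists were chosen with earlier results of these data known. The scripts were tested on simulated data. Alternatives were DESeq2 1.42.0, limma 3.58.1 on log2(FPKM + 1) and log2(FPKM + 0.1), other scalings and filters, the 6 libraries of a comparison alone, a replicate block and leaving out each library. Total counts per library set the precision, and their range is given in the report.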

Additional observations from a re-analysis of the deposited data

How the results depend on the processing

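Over the 15 tested members other than Sema7a and 3 comparisons, 45 fold changes were refitted under 20 alternatives. Of these 900 refits, 855 kept their direction and their side of the threshold, 11 lost a call, 11 gained one and 23 changed sign. For each comparison, 3 of the 20 alternatives left out a library of the group not compared. Such refits hardly move the fold change, so their kept direction says little. For (A/R) platelet against untreated, Nrp1 stayed at -0.81 without any 1 of the platelet libraries. Of 60 refits of Sema7a, which has no test, all kept their sign and 3 moved by more than the spread between replicates. Sema7a's log2 change was 0.75 for platelet against untreated and -1.04 for (A/R) platelet against platelet with limma on log2(FPKM + 1), and -1.01 in the second comparison with quantile-normalized FPKM. Of the 15 members other than Sema7a, 6 to 8 were called with (A/R) platelets against untreated cells, and 6 to 8 against platelet-treated cells. Over all tested genes, 38.8% and 34.3% were called in these comparisons in the main fit. With platelets against untreated cells the count was 0 in every alternative except DESeq2, with 1, Plxnd1. Over all tested genes, that comparison gave 31 calls, against 222 with DESeq2, 18 with its 6 libraries alone, 18 without platelet replicate 3 and 0 with the replicate block. The calls lost were Sema3f for (A/R) platelet against untreated under quantile normalization and Plxna1 for (A/R) platelet against platelet in 10 alternatives.

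The sign changed only for differences that were never called. For (A/R) platelet against untreated, Sema3b was 0.0082 with quantile-normalized FPKM, and Plxnd1 was 0.017 with filterByExpr and 0.018 with no filter. With 1 library left out, Plxnb2 ranged from -0.11 to 0.017, Plxnd1 from -0.022 to 0.019 and Sema3b from -0.18 to 0.0019. With platelets against untreated cells, Sema4c was 0.0010 with quantile-normalized FPKM. With 1 library left out, Plxna2 ranged from -0.12 to 0.082, Plxna4 from -0.057 to 0.094, Sema3a from -0.034 to 0.078 and Sema3b from -0.24 to 0.056. For (A/R) platelet against platelet, Sema3b was -0.015 with upper-quartile scaling, -0.011 with limma on log2(FPKM + 1) and -0.010 on log2(FPKM + 0.1), and ranged from -0.13 to 0.17 with 1 library left out. The cause of these changes was not tested.

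Replicate numbers did not pair the libraries: same-numbered libraries of different groups correlated in their deviations at -0.030 to 0.052 over 9 pairs, and others at -0.065 to 0.051 over 18. With the replicate block, 7, 0 and 6 of the 15 members were called with (A/R) platelets against untreated, with platelets against untreated and between both treatments. Depth limits the 15 members below the filter, of which 9 had at most 14 counts in any library.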
